A study of Mus musculus with 35 samples.

Results

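Skin labelled control, taken 1 week after radiation, was compared with the skin of sham mice across all genes. The samples were chosen by their labels alone, namely the 4 control libraries of week 1 and the 3 sham libraries, 7 of the 35 libraries of the series. The study followed radiation dermatitis, the skin reaction to radiotherapy, in C57BL/6J mice, a widely used inbred strain, all female and 10 weeks old. Per the labels, the left flank received 25 Gy in 420 s, at a rate of 3.6 Gy per min, and 19 mice were split at random into a sham group without radiation and 4 groups sampled weekly for 4 weeks. With 35 samples from 19 mice, the control samples were taken to be skin of radiated mice, so that sham and control week 1 libraries come from different mice. No transgene or drug is named for either group. Treated skin was shaved with a razor after radiation. Whether sham and control skin was shaved, where on the body control skin was taken, when after the sham procedure the sham skin was taken, and the time of day of sampling are not given in the sources used here, and no batch or date is named.

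Mouse back skin is a layered tissue of epidermis, dermis with hair follicles and sebaceous glands, a fat layer, and a thin sheet of striated muscle beneath it, so a bulk biopsy holds RNA of all of these. Hair follicles pass through cycles of growth and rest, and a growing follicle makes hair keratins in large amounts. Skin cells also run a circadian clock, a loop in which the activators CLOCK and ARNTL switch on the Per and Cry repressors and output factors such as DBP. In bulk samples, fewer cells of a type and less RNA per cell cannot be told apart.

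The total of estimated counts ran from 17362853 to 26897501 over the 7 libraries, and 20745 to 21387 genes had a count. The 10 genes with the most counts held 7.9% to 12.7% of a library. Levels are given as CPM, counts per 1e+06 counts of a library scaled with TMM factors. When log2 CPM of the 7 libraries were reduced to principal components, the first component held 54.7% of the variance. Sham replicates 1, 2 and 3 lay at -8.3, -68.4 and -87.2 on it, and control replicates 1, 2, 3 and 4 at -15.3, 66.1, 76.1 and 36.9. The libraries of sham replicate 1 and control replicate 1 thus lay between the other libraries of both groups, and control replicate 1 lay beyond sham replicate 1 on the sham side. No pair of libraries agreed within sampling noise (lowest reduced chi-square 21.6 over 9 pairs of 1 group). Epidermal marker genes were present at a summed level of 16740 to 28310 CPM in sham skin and 21931 to 29872 CPM in control skin.

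In control skin of week 1, 10 of 20 clock genes, 12 of 22 immediate early genes, 18 of 25 skeletal muscle genes and 12 of 23 adipocyte genes were higher than in sham skin. Of the genes of dividing cells 11 of 30 were lower, as were 5 of 16 sebaceous gland genes and 5 of 35 Hox and body position genes. Of 17893 genes tested with edgeR's quasi-likelihood F test, 881 (4.92%) had an adjusted p under 0.05 after Benjamini-Hochberg adjustment, which is what "passed" means below. Of these, 586 (3.28%) were higher and 295 (1.65%) were lower in control skin. These 2 shares are the background for the counts of each gene list. The median log2 fold change was 1.15 among the genes that were higher, -1.04 among those that were lower and -0.04 over all genes tested. The values of the 2 groups did not overlap in 4193 genes (23.4%), among them 877 of the 881. The smallest adjusted p was 0.00712, and before adjustment 4880 genes (27.3%) were under 0.05. With total-count scaling in place of TMM, 830 genes passed with the split turned to 361 higher and 469 lower, and the median of all genes moved from -0.04 to -0.19.

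The number of genes that passed rested on single libraries. It was 0 without sham replicate 2 and 0 without sham replicate 3, with 4497 and 3617 genes under 0.05 before adjustment. It was 21, 24 and 11 without control replicates 2, 3 and 4. It was 1803 without sham replicate 1 and 1557 without control replicate 1, the libraries that lay between the groups. Of the 18330 and 17681 genes tested in these 2 fits, 1004 and 877 were higher and 799 and 680 lower. DESeq2's Wald test on all 7 libraries called 2974 genes, 17.7% of the 16821 with an adjusted p (10.3% higher, 7.37% lower), 873 of the 881 among them. In a comparison chosen after seeing the data, sham replicates 2 and 3 against control replicates 2, 3 and 4, 2672 genes passed, and 808 of them were among the 881. With control replicates 1 and 4 alone against the 3 sham libraries, also chosen after seeing the data, 0 passed in edgeR and 2460 were under 0.05 before adjustment. The 102 genes named by rule for this comparison kept their direction in all of these settings except Krt6a, but their side of the threshold depends on the libraries used. Genes marked below as chosen after their values were seen are not part of this count.

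**Figure D1:**
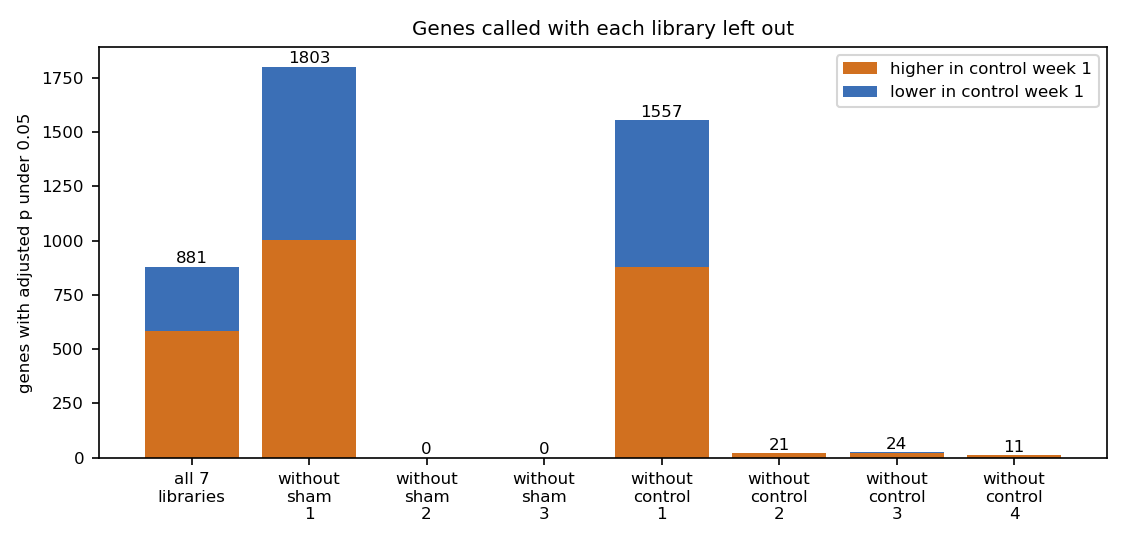
Genes with an adjusted p under 0.05 in edgeR (y axis, number of genes) with all 7 libraries and with each library left out (x axis), stacked by direction. The bar stands at 881 for all libraries, at 1803 and 1557 without sham or control replicate 1, and at 24 or fewer without any of the other 5.

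The circadian clock genes formed 1 of the groups with the most members higher. Of the 20 measured, 10 passed and all 10 were higher in control skin, against 3.28% of all genes tested. Their median log2 fold change was 1.15, and 14 of the 20 had values that did not overlap, beside 23.4% of all genes. These 10 were Per1, Per2, Per3, Cry2, Nr1d1, Nr1d2, Dbp, Tef, Bhlhe40 and Usp2, which comprise repressors of the loop and its outputs. To show what lies before their start sites, 3 stretches of 250 bases are printed here for clock genes that passed and hold a searched motif, from the RefSeq promoter table on GRCm38.p6, 5′ to 3′ on the gene's strand and ending just before the start. Capitals mark the E-box CACGTG, the palindrome bound by CLOCK and ARNTL, or the D-box TTATGTAA, the element bound by DBP and TEF. The Per1 stretch (chr11:69098699-69098948, plus strand, 1 of 2 starts in the table) has its E-box 166 bases before the start. The Tef stretch (chr15:81802423-81802672, plus strand, 1 of 2 starts) has it 127 bases before. The Per3 stretch (chr4:151044666-151044915, minus strand) has D-boxes 205 and 158 bases before.
Per1: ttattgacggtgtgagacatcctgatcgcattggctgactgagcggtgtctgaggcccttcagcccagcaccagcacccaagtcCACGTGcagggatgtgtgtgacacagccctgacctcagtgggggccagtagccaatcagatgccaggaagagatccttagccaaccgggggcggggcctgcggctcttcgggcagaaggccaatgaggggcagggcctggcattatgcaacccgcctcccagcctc
Tef: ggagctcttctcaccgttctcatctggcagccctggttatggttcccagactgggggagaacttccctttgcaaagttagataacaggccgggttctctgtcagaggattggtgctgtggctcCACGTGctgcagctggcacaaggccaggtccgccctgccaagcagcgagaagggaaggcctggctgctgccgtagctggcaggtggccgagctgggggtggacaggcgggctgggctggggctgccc
Per3: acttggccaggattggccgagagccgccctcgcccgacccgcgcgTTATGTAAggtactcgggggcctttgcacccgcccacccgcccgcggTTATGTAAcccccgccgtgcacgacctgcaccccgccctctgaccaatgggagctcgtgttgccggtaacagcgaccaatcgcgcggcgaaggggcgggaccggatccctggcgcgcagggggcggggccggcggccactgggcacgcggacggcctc
Both strands were searched, and no motif overlaps another in these stretches. The shares that follow count whole windows, which run on past the start, at any start of a gene. An E-box lay in such a window of 5 of 17 clock genes with an entry (29.4%: Per1, Cry1, Tef, Bhlhe41 and Ciart), against 8.09% of 27025 genes in the table. The share was 23.5% (4 of 17) among the immediate early genes described below. A D-box lay in 1 of 17, Per3, against 1.11% of the genes in the table. A match says only that these letters are in the window.

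Dbp encodes a transcription factor that is a direct output of the clock (chromosome 7, 45705088 to 45710203, GRCm38). Its level was 8.43, 4.42 and 5.06 CPM in the 3 sham libraries and 38.8, 45.8, 41.9 and 62.1 CPM in the 4 control libraries. The lowest control library was over 4 times the highest sham library. Its log2 fold change was 2.97 (SE 0.278, edgeR adjusted p 0.00977), and the adjusted p was 0.0519 without sham replicate 2 and 0.0656 without sham replicate 3. Per1, a repressor of the loop that also responds to glucocorticoids (chromosome 11, 69095217 to 69109960), lay at 98.1, 103 and 96.9 CPM in sham skin and 268, 414, 416 and 489 CPM in control skin. The sham libraries lay within 7 CPM of each other, and all control libraries were more than 2.5 times higher. Its log2 fold change was 1.99 (SE 0.198, edgeR adjusted p 0.0107). Per2, a partner of Per1 in the repressor complex, lay at 3.89, 3.77 and 5.21 CPM in sham skin and 12.4, 41.9, 40.5 and 47.2 CPM in control skin, a log2 fold change of 3.04 (SE 0.441, edgeR adjusted p 0.0269). Control replicate 1 was the low library of its group for Per2 and also for Cry2, a repressor, which read 23.8, 22.8 and 27.4 CPM in sham skin and 57.5, 98.7, 106 and 102 CPM in control skin. Tef, a factor related to DBP, had 39.8 to 52.8 CPM in sham skin and 95.9 to 135 CPM in control skin (log2 fold change 1.33, SE 0.166, edgeR adjusted p 0.0203).

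The activator side of the loop did not share this direction. These genes were chosen for mention after their values were seen. Arntl, the activator partner of CLOCK, had a mean of 40.5 CPM in sham skin and 26.9 CPM in control skin (log2 fold change -0.60, edgeR adjusted p 0.0805). Npas2, a stand-in for CLOCK, had means of 14.5 and 8.36 CPM (-0.80, adjusted p 0.0948). Clock itself had means of 122 and 124 CPM (0.01, adjusted p 0.983). Arntl and Npas2 had the only negative log2 fold changes of the 20 clock genes. With total-count scaling 9 of the 20 were higher and 1, Arntl, was lower, while Per3 no longer passed. DESeq2 called 14 of the 20 higher, beside 10.3% of all genes. It called 2 lower, Arntl (adjusted p 0.0292) and Npas2 (adjusted p 0.031), beside 7.37%. Without sham replicate 2 or sham replicate 3, 0 of the 20 passed, with medians of 1.04 and 1.16. Without control replicates 2, 3 and 4 in turn, 2, 4 and 2 passed, and without sham or control replicate 1, 12 and 13.

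Immediate early genes, which are transcribed within minutes of a stimulus without new protein synthesis, were the group with the highest median. Of 22 measured, 12 passed, all higher in control skin, the median log2 fold change was 1.65, and all 22 values were above 0. The 12 were the leucine zipper factors Fosl1, Junb, Jund, Atf3 and Maff, the nuclear receptors Nr4a1, Nr4a2 and Nr4a3, the factors Klf2, Klf4 and Myc, and Zfp36, which speeds the decay of mRNA. Nr4a1 (chromosome 15, 101254269 to 101274795) lay at 30.1, 19.6 and 9.81 CPM in sham skin and 423, 169, 381 and 380 CPM in control skin. Even control replicate 2, the lowest of its group, was over 5 times the highest sham library. Its log2 fold change was 4.08 (SE 0.463, edgeR adjusted p 0.0163). Fosl1, the AP-1 subunit Fra-1 (chromosome 19, 5447547 to 5455946), lay at 1.94, 2.47 and 0.981 CPM in sham skin and 11.7, 44.6, 159 and 71.3 CPM in control skin. It had the largest log2 fold change among the named genes, 5.29 (SE 0.878, edgeR adjusted p 0.0303), and a spread of more than 10 times within control skin. Atf3, a stress-induced factor, lay at 23.3, 19.6 and 9.19 CPM in sham skin and 409, 112, 261 and 163 CPM in control skin (3.76, SE 0.519, edgeR adjusted p 0.0234). Nr4a2 and Nr4a3 had log2 fold changes of 2.48 and 2.78 and Klf4 one of 1.46.

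Fos, Fosb and Egr1, the best-known immediate early genes, did not pass in edgeR, and these too were picked out after their values were seen. They had log2 fold changes of 1.95, 3.09 and 1.64 (edgeR adjusted p 0.19, 0.0762 and 0.0744). DESeq2 called 18 of the 22 immediate early genes, all higher, beside 10.3% of all genes. Fosb (adjusted p 0.0141) and Egr1 (0.0367) were among them and Fos (0.167) was not. Fosb means were 155 CPM in sham skin and 1326 CPM in control skin, with wide spread in both. The number of immediate early genes that passed was 0 without sham replicate 2 or 3, 2, 1 and 0 without control replicates 2, 3 and 4, and 12 and 15 without sham or control replicate 1. The median stayed between 1.44 and 1.86 in these 7 settings. The cAMP response element TGACGTCA is a palindrome bound by CREB. The windows searched for it ran from 250 bases before a start to past it. It lay in a window of 2 of 17 immediate early genes with an entry (11.8%: Dusp1 and Maff), against 2.03% of all genes in the table. Other genes among the largest or most certain increases were on no fixed list. Csrnp1, a nuclear factor known as an AXIN1-induced gene, lay at 16.4 to 19.6 CPM in sham skin and 81.3 to 162 CPM in control skin (log2 fold change 2.62, SE 0.248, edgeR adjusted p 0.00977). Sik1, a salt-inducible kinase, lay at 123 to 168 CPM and 491 to 755 CPM (2.09, SE 0.195, adjusted p 0.00977). Arc, best known as a neuronal activity gene, had 1.63 to 4.03 CPM and 7.03 to 34.2 CPM (2.69), and Sele, the endothelial adhesion molecule E-selectin, 0.671 to 1.99 CPM and 4.58 to 16.1 CPM (2.72).

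**Figure D2:**
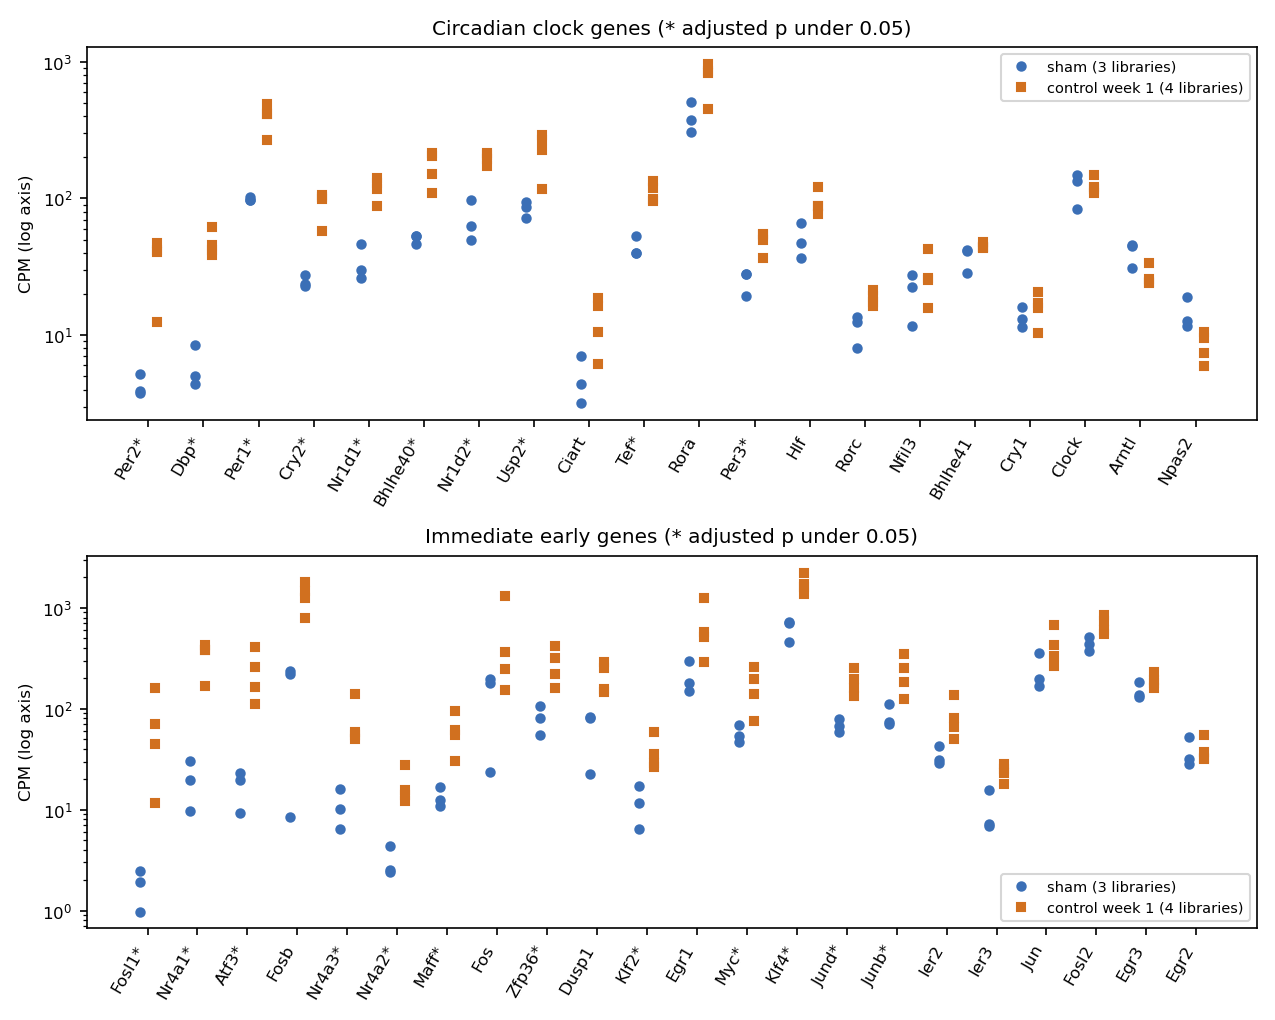
Levels (y axis, CPM on a log axis) of the 20 clock genes and the 22 immediate early genes (x axis, ordered by log2 fold change), with 1 point for each of 3 sham and 4 control week 1 libraries. A star marks an adjusted p under 0.05, which 10 clock genes and 12 immediate early genes had, all with control libraries above sham libraries, while Arntl and Npas2 lie on the right with control points toward the low end.

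Genes that glucocorticoids induce overlapped with these groups in part, since Per1 is on both lists. Of 12 measured, 5 passed and all were higher: Mt1, Mt2, Errfi1, Klf9 and Per1 (median of the 12, 1.21), of which Mt2 falls outside the rule for named genes and was chosen after its value was seen. Mt1, a metallothionein that binds zinc and copper, lay at 39.5, 26.7 and 45.8 CPM in sham skin and 86.9, 249.5, 434 and 248.6 CPM in control skin (log2 fold change 2.76, SE 0.482, edgeR adjusted p 0.0322). Errfi1, an inhibitor of the EGF receptor, lay at 161, 119 and 131 CPM and 376, 715, 1090 and 754 CPM (2.41, SE 0.326, adjusted p 0.022). Klf9, a transcription factor, had 77.9 to 160 CPM and 242 to 539 CPM (1.86). Control replicate 1 was the lowest of its group for all 3. Of the 12, 0 passed without sham replicate 2 or 3, and 1, 2 and 1 without control replicates 2, 3 and 4.

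**Figure D3:**
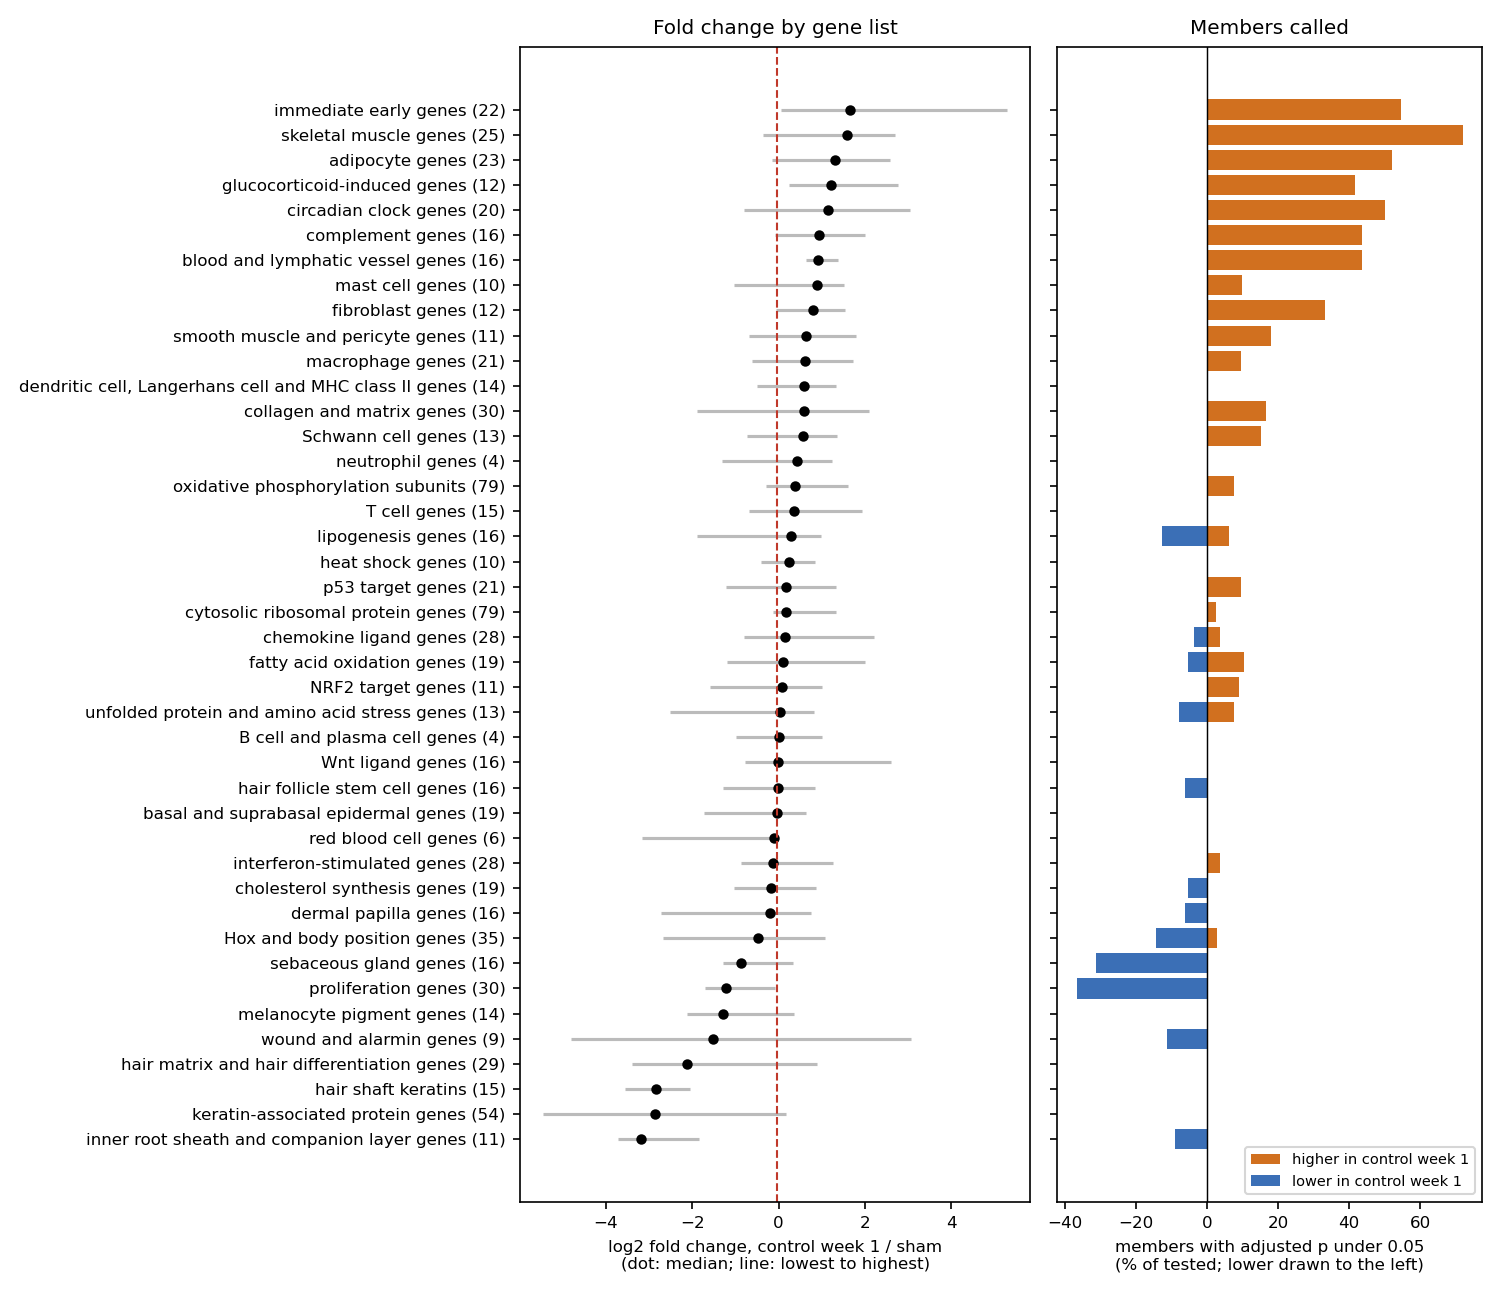
Left, the median (dot) and the lowest and highest (line) log2 fold change of control week 1 over sham for each of 42 gene lists, with the number of members tested in brackets and the median of all genes, -0.04, as a dashed line. Right, the percent of members tested with an adjusted p under 0.05 in edgeR, higher members drawn to the right and lower to the left. The bars reach farthest right for skeletal muscle (18 of 25) and farthest left for proliferation genes (11 of 30), and the hair lists at the bottom have medians from -2.12 to -3.20 with 1 member called among them.

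Skeletal muscle genes had the largest share that passed. Of 25 measured, 18 passed and all 18 were higher in control skin, beside 3.28% of all genes, with a median log2 fold change of 1.58. The values of 21 did not overlap, beside 23.4% of all genes. Mstn, which encodes myostatin, a secreted brake on muscle growth (chromosome 1, 53061640 to 53068079), had the smallest adjusted p of all genes. It lay at 61.1, 50.2 and 45.6 CPM in sham skin and 261, 302, 430 and 369 CPM in control skin, so that every control library was over 4 times every sham library. Its log2 fold change was 2.69 (SE 0.202, edgeR adjusted p 0.00712). Actn3, the alpha-actinin of fast fibres, lay at 401, 225 and 313 CPM and 1108, 1110, 1636 and 1899 CPM (2.19, SE 0.275, adjusted p 0.0203). Tcap, which anchors titin at the Z disc, had 31.8 to 73.5 CPM and 158 to 316 CPM (2.20), and Mybpc2, the fast form of myosin binding protein C, 193 to 397 CPM and 789 to 1160 CPM (1.85). Sham replicate 1 was the highest sham library for each of these 4 genes.

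The summed level of the 25 muscle genes was 63353, 20246 and 39698 CPM in sham skin and 70819, 76463, 87108 and 126519 CPM in control skin, and no member was at 0. How much of the muscle layer each biopsy took is not given, and its part in the differences was not tested. Lmod1 and Des, genes of smooth and other muscle, were the 2 of 11 smooth muscle and pericyte genes that passed, at log2 fold changes of 1.80 (edgeR adjusted p 0.0128) and 1.36 (adjusted p 0.0482). Of 79 oxidative phosphorylation subunits measured, 6 passed (3.28% of all genes were higher), all higher, with a median of 0.37. They included Cox8b (1.61) and Cox6a2 (1.36), the cytochrome oxidase subunits known from heart and skeletal muscle, and Ndufa8 (0.58) and Uqcr11 (0.77), which are made in most tissues. With total-count scaling 1 of the 79 passed, with a median of 0.21. The count was 0 without sham replicate 2 or 3 or control replicate 2, 3 or 4, and 11 and 10 without sham or control replicate 1. DESeq2 called 27 of the 79, all higher, beside 10.3% of all genes. Ucp3 and Fabp3, both also known from muscle, were the 2 of 19 fatty acid oxidation genes that were higher (1.32 and 2.00), and Acot1, an acyl-CoA thioesterase, was lower at 35.0 to 37.8 CPM in sham skin and 11.6 to 18.8 CPM in control skin (-1.18, SE 0.182, edgeR adjusted p 0.0295). Of the muscle genes, 0 passed without sham replicate 2 or 3, 2, 1 and 1 without control replicates 2, 3 and 4, and 23 and 20 without sham or control replicate 1. In a single fit of all 35 libraries 4 of the 25 passed.

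Of 23 adipocyte genes measured, 12 passed, all higher in control skin, and the median log2 fold change was 1.31. Adipoq encodes adiponectin, a hormone of fat cells (chromosome 16, 23146536 to 23158028). It lay at 33.9, 56.7 and 25.9 CPM in sham skin and 98.8, 124, 213 and 159 CPM in control skin, with no overlap. Thrsp, which acts in fat synthesis, lay at 5.74, 11.3 and 2.99 CPM and 32.0, 41.8, 53.5 and 33.6 CPM (2.58, SE 0.416, edgeR adjusted p 0.0295). Cidec, a lipid droplet protein, had a log2 fold change of 2.02, Car3, a carbonic anhydrase of fat and muscle, 2.04, and Retn, the hormone resistin, 1.86 (adjusted p 0.0307, 0.0295 and 0.0234). The summed adipocyte level was 1025 to 1718 CPM in sham skin and 2826 to 4902 CPM in control skin. The number that passed was 0 without any 1 of sham replicates 2 and 3 and control replicates 2, 3 and 4, with medians from 1.09 to 1.34, and 11 and 14 without sham or control replicate 1.

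Of 16 lipogenesis genes, 3 passed, and 13 had a log2 fold change above 0, with a median of 0.28 (0.42 without sham replicate 1 and 0.16 without sham replicate 3). Dgat2, which makes triglyceride, was higher (0.86, edgeR adjusted p 0.0427), and Elovl6 and Scd2 were lower. Elovl6, which extends saturated fatty acids, lay at 2333, 1193 and 867 CPM in sham skin and 406, 356, 482 and 357 CPM in control skin (-1.88, SE 0.305, adjusted p 0.0295). Scd2, a desaturase, had 261 to 376 CPM and 151 to 208 CPM (-0.82, adjusted p 0.0404). Of 16 sebaceous gland genes measured, 5 passed, all lower, with a median of -0.87. They were Soat1, which esterifies sterols (-1.11), Elovl3, which makes very long chain fats (-1.29), Cidea, a lipid droplet protein of sebocytes (-1.28), Mc5r, a melanocortin receptor of the gland (-0.92), and Far2, a fatty alcohol enzyme chosen after its value was seen (-1.24). Soat1 lay at 412.8, 288 and 242 CPM in sham skin and 155, 129, 177 and 125 CPM in control skin. All sham values of Soat1 were above all control values. Of the lipogenesis and sebaceous genes, 0 passed without sham replicate 2 or 3 or control replicate 2, 3 or 4, and of the sebaceous genes alone 3 and 4 passed without sham or control replicate 1 and 0 in the fit of all 35 libraries.

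Dermal and vascular genes were higher in part. Of 16 complement genes 7 passed, all higher, with a median of 0.94. C3, the central component, lay at 257, 168 and 110 CPM in sham skin and 851, 830, 718 and 466 CPM in control skin (2.00, SE 0.318, edgeR adjusted p 0.0295). The protease C1s1 and C4b had log2 fold changes of 1.26 and 1.01. Of 16 blood and lymphatic vessel genes 7 passed, all higher, with a median of 0.91, and all 16 were above 0. The angiopoietin receptor Tek lay at 22.1, 17.4 and 15.1 CPM and 44.4, 48.4, 36.0 and 31.5 CPM (1.13, adjusted p 0.0331), and its relative Tie1, the junction protein Esam and the TGF-beta co-receptor Eng had 0.94, 0.82 and 0.97. Of 12 fibroblast genes 4 passed, all higher, with a median of 0.80: Dpt, a matrix protein (1.55), Gsn, an actin-severing protein (1.10), Vim (0.98) and Pdgfra (0.63). In sham skin, replicate 3 had the lowest summed level for the complement, vessel and fibroblast lists. Without sham replicate 3, 0 members of the 3 lists passed, with medians of 0.85, 0.72 and 0.66. None passed either without sham replicate 2 or control replicate 2, 3 or 4, again with positive medians.

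Of 30 collagen and matrix genes 5 passed, all higher, and 27 were above 0, with a median of 0.58. The 5 were Ccn1, a matricellular protein (2.10), Fn1, fibronectin (1.25), Mfap5, a microfibril protein (1.14), Loxl1, which crosslinks elastin (1.09), and P4ha2, a collagen prolyl hydroxylase chosen after its value was seen (0.57). Loxl1 lay at 29.4, 27.8 and 22.3 CPM in sham skin and 59.8, 60.7, 57.3 and 49.2 CPM in control skin (SE 0.143, edgeR adjusted p 0.0203). Its values were tight in both groups and far apart. Col1a1, the main chain of type I collagen, lay at 2700.0, 4400.0 and 1940.0 CPM in sham skin and 6570.0, 2329, 5152 and 4868 CPM in control skin. These overlapped, and it did not pass (0.64, SE 0.377, adjusted p 0.3). Of the matrix genes, 0 passed without sham replicate 2 or 3 or control replicate 2, 3 or 4.

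Of 30 proliferation genes, which dividing cells express, 11 passed, all lower in control skin, against 1.65% of all genes, with a median log2 fold change of -1.22, and all 30 were below 0. Mki67, the marker of cycling cells (chromosome 7, 135689784 to 135716361), lay at 216, 175 and 344 CPM in sham skin and 120, 65.8, 77.6 and 83.7 CPM in control skin. The groups did not overlap. Top2a, a DNA topoisomerase, lay at 192, 155 and 310 CPM and 103, 79.4, 89.0 and 89.3 CPM (-1.29, SE 0.222, edgeR adjusted p 0.0317). Cenpf, a kinetochore protein, and Nusap1, a spindle protein, had log2 fold changes of -1.48 and -1.34. Outside the list, the mitotic kinesin Kif22 was at -1.89, the linker histone H1f1 at -2.42 and the condensin subunit Smc2 at -1.03. Smc2 had 49.8, 48.1 and 60.6 CPM in sham skin and 28.9, 24.8, 24.5 and 26.1 CPM in control skin (SE 0.134, adjusted p 0.0203). The number of proliferation genes that passed was 0 without sham replicate 2 or 3 or control replicate 2, 3 or 4, 11 without sham replicate 1, 16 without control replicate 1 and 3 in the fit of all 35 libraries.

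Hair genes, which growing follicles express, had the lowest medians of all lists, yet the groups overlapped. The 15 hair shaft keratins had a median log2 fold change of -2.85 and 0 passed. Their summed level was 326, 3150 and 4133 CPM in sham skin and 1221, 7.41, 7.59 and 134 CPM in control skin. Control replicate 1 was above sham replicate 1, while sham replicates 2 and 3 were the highest and control replicates 2 and 3 the lowest. Krt34, a hair shaft keratin, was at 0 in control replicates 2 and 3, which allows up to 3 counts in each. Krt71, an inner root sheath keratin, lay at 499.6, 4967 and 5147 CPM in sham skin and 1492, 0.19, 0.668 and 337 CPM in control skin (-2.95, SE 1.99, edgeR adjusted p 0.364). Of 11 inner root sheath and companion layer genes 1 passed, Krt75, a companion layer keratin, at 72.5, 219 and 241 CPM and 81.3, 42.2, 33.6 and 41.4 CPM (-1.84, SE 0.428, adjusted p 0.0478), with control replicate 1 above sham replicate 1. Where keratin-associated protein genes are near-identical, their counts depend on how reads are split. The 54 measured had a median of -2.86 with 0 passing, and the 29 hair matrix genes one of -2.12 with 0 passing. These counts are edgeR's, and 5 hair shaft, 17 keratin-associated and 17 hair matrix genes had an unadjusted p below 0.05, beside 27.3% of all genes. DESeq2 called 1 hair shaft keratin and 0 keratin-associated genes, and of the hair matrix genes 11 lower and 1 higher, beside 7.37% and 10.3% of all genes. The fit of all 35 libraries called 5 hair matrix genes, all lower. Without control replicate 1, 7 hair shaft, 4 inner root sheath, 17 keratin-associated and 16 hair matrix genes passed, all lower, beside 680 of all 17681 genes tested. Without sham replicate 1 the counts were 3, 2, 6 and 12, all lower, beside 799 of 18330. The keratin-associated genes tested numbered 41 without control replicate 1 and 56 without sham replicate 1. The medians without control replicate 1 were -5.81, -5.53, -5.86 and -2.99. Since the hair levels of these 2 libraries cross between the groups, leaving either out moves the groups apart, and the counts are given as a description. The order of the 7 libraries by hair shaft level was their order on the first principal component, apart from control replicates 2 and 3, which changed places. Among the control libraries, replicate 1 had the highest and replicates 2 and 3 the lowest levels on both the hair shaft and the proliferation list, while among the sham libraries replicate 1 was lowest for hair and replicate 2 lowest for proliferation. The part of the hair level in the other differences was not tested.

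**Figure D4:**
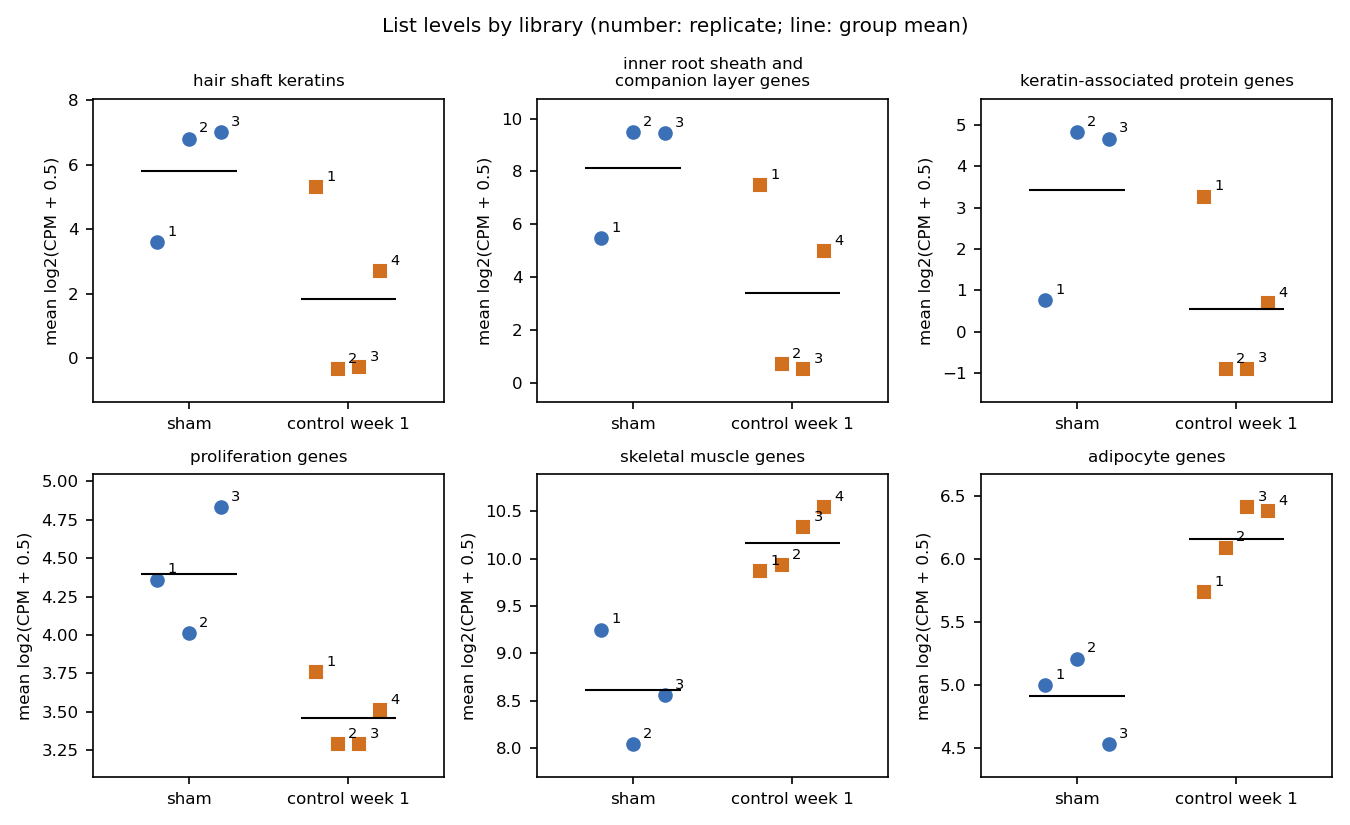
Mean of log2(CPM + 0.5) over the members of 6 lists (y axis) for each library of sham and control week 1 skin (x axis, points numbered by replicate, line for the group mean). The 3 hair lists in the upper row overlap between groups, with sham replicate 1 below control replicate 1, and the proliferation, muscle and adipocyte lists in the lower row do not overlap.

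In the other hair follicle lists few members passed in edgeR. Of 16 follicle stem cell genes 1 passed, Foxc1, a factor of stem cell quiescence, at 92.0 to 173 CPM in sham skin and 52.8 to 71.9 CPM in control skin (-1.12, SE 0.208, edgeR adjusted p 0.0354). Of 16 dermal papilla genes 1 passed, Inhba, an activin subunit, at 33.2 to 49.1 CPM and 11.1 to 23.5 CPM (-1.14, adjusted p 0.0428). DESeq2 called 5 of the stem cell genes lower and 1 higher, and 3 of the dermal papilla genes lower and 1 higher, beside 7.37% of all genes lower and 10.3% higher. The 14 melanocyte pigment genes had a median of -1.30, which was -0.19 without sham replicate 3, and 0 passed in edgeR, with 2 at an unadjusted p below 0.05, beside 27.3% of all genes, and 1 called lower by DESeq2. Of 19 basal and suprabasal epidermal genes 0 passed in edgeR, with a median of -0.03, 7 at an unadjusted p below 0.05, beside the same 27.3%, and 3 called higher and 1 lower by DESeq2. Single epidermal genes outside that list did. Cyp2b19, a P450 enzyme of upper keratinocytes, lay at 83.5, 88.3 and 86.4 CPM in sham skin and 39.7, 43.1, 41.8 and 44.1 CPM in control skin (-1.04, SE 0.0954, adjusted p 0.00977). Its values lay within 5 CPM of each other in either group. Fabp5, the epidermal fatty acid binding protein, lay at 169, 190.0 and 175 CPM and 92.6, 72.4, 84.9 and 67.4 CPM (-1.17, SE 0.133, adjusted p 0.0163), and Cers4, a ceramide synthase, at 117 to 156 CPM and 54.7 to 73.8 CPM (-1.06, adjusted p 0.022). Without sham replicate 2 or sham replicate 3, none of these passed.

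Hox genes encode factors whose combination in skin fibroblasts keeps a record of position, with higher numbers expressed toward the tail. Of 35 Hox and related position genes measured, 5 passed lower and 1 higher, beside 1.65% and 3.28% of all genes, with a median of -0.48 (-0.31 without sham replicate 1). Hoxb9 (chromosome 11, 96271457 to 96276595) lay at 10.9, 14.7 and 7.38 CPM in sham skin and 2.23, 3.47, 2.29 and 1.26 CPM in control skin (-2.25, SE 0.356, edgeR adjusted p 0.0295). The lowest sham library was over 2 times the highest control library. Its neighbour Hoxb8 (chromosome 11, 96281905 to 96285315) lay at 36.8, 35.3 and 41.6 CPM and 16.3, 8.55, 5.11 and 11.2 CPM (-1.89, SE 0.332, adjusted p 0.0322). Hoxc10 (chromosome 15, 102966796 to 102971893) lay at 7.90, 7.24 and 6.25 CPM and 2.75, 1.90, 0.906 and 0.715 CPM (-2.19, SE 0.436, adjusted p 0.039). Hoxa9 had -1.76 (adjusted p 0.0457), and Hoxa3, chosen after its value was seen, had -1.16 (adjusted p 0.0416). Tbx15, a factor of dorsal trunk dermis, was the 1 that was higher, at 95.1, 67.8 and 56.9 CPM and 132, 159, 154 and 180 CPM (1.08, SE 0.186, adjusted p 0.0315). Without sham replicate 2 or 3 or control replicate 2, 3 or 4, 0 of the 35 passed, and without control replicate 1, 10 passed lower and 1 higher. In radiated skin of week 1, the means of Hoxb9, Hoxc10 and Tbx15 were 14.9, 8.16 and 99.8 CPM, nearer to sham than to control skin, and those of Hoxb8, Hoxa9 and Hoxa3 were 16.4, 5.40 and 7.23 CPM, nearer to control skin. The summed level of the position genes was 680 to 715 CPM in sham skin, 466 to 614 CPM in control skin and 388 to 580 CPM in radiated skin. Where on the body the control biopsies were taken is not given in the sources used here, and a part of site in these values was not tested.

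The immune, damage and stress lists are given beside the 3.28% of all genes that were higher and the 1.65% that were lower. Of 21 p53 target genes 2 passed, both higher: Ccng1, a cyclin-like protein (1.09, edgeR adjusted p 0.0428), and Pmaip1, which encodes NOXA (0.96, adjusted p 0.0489). Cdkn1a, the p53-induced inhibitor of the cell cycle p21, lay at 316.5, 477 and 356 CPM in sham skin and 322, 537, 819 and 544 CPM in control skin (0.52, SE 0.285, adjusted p 0.267). These values overlapped. Of 28 interferon-stimulated genes 1 passed (Gbp2, 1.09), of 28 chemokine ligand genes 1 passed higher (Cx3cl1, 1.05) and 1 lower (Ccl25, -0.69). Of 21 macrophage genes 2 passed, Cd14, a lipopolysaccharide co-receptor (1.73), and Folr2, a folate receptor of resident macrophages (1.43), with a list median of 0.61 (1.10 without sham replicate 1 and 0.37 without sham replicate 3). Of 10 mast cell genes 1 passed, Hdc, which makes histamine (1.30). None of 15 T cell, 14 dendritic and MHC class II, 4 B cell and 4 neutrophil genes passed in edgeR, which does not show that they were equal. Of these lists 3, 3, 1 and 1 members had an unadjusted p below 0.05, beside 27.3% of all genes, and DESeq2 called 1 T cell and 1 B cell gene, both higher, beside 10.3%. S100a8, a neutrophil and wound alarmin, lay under the filter on low counts, at 0.207 to 0.441 CPM in sham skin and 0 to 0.382 CPM in control skin. Of 9 measured wound and alarmin genes 1 passed, Sprr2h, a cornified envelope protein of a near-identical family, at 0.618, 8.97 and 5.32 CPM and 0.279, 0.0950, 0.334 and 0 CPM (-4.80, SE 0.985, adjusted p 0.0406). Krt6a, a wound keratin, lay at 128, 884 and 264 CPM and 144, 253, 257 and 209.6 CPM (-0.99, adjusted p 0.271), a value set by sham replicate 2, without which it was 0.13. Of 13 Schwann cell genes 2 passed, the myelin genes Pmp22 (1.35) and Mbp (0.81), and of 11 NRF2 targets 1 passed, Gstm1 (1.00). Of 13 unfolded protein and amino acid stress genes Herpud1 was higher (0.82) and Creld2 lower (-0.65). None of the 10 heat shock, 16 Wnt ligand and 6 red blood cell genes passed in edgeR, with 4, 5 and 1 at an unadjusted p below 0.05, beside 27.3% of all genes. DESeq2 called 2 heat shock genes higher and 1 lower, 3 Wnt ligand genes higher and 1 lower, and 0 red blood cell genes, beside 10.3% of all genes higher and 7.37% lower. Without sham replicate 2 or 3 or control replicate 2, 3 or 4, 0 members of these immune, damage and stress lists passed.

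The remaining genes with the largest differences were of mixed roles. Gm28661, an unprocessed pseudogene on chromosome 1 (24614885 to 24615565), lay at 0, 0.910 and 1.29 CPM in sham skin and 14.9, 49.7, 14.7 and 33.4 CPM in control skin (5.27, SE 0.882, edgeR adjusted p 0.0307). As a pseudogene it may share reads with near-identical copies, so its counts are uncertain. The lower genes were Gm2792, also an unprocessed pseudogene (-2.73), Trim59, a RING finger protein (-2.17), Pik3r3, a regulatory subunit of PI3 kinase (-2.01), Ppp1r3b, which directs a phosphatase to glycogen (-1.99), Mab21l3 (-1.99), Gm49337 (-1.94) and Efna2, the ligand ephrin-A2 (-1.87). Pik3r3 lay at 23.1, 91.5 and 69.6 CPM in sham skin and 21.8, 13.1, 13.3 and 12.9 CPM in control skin, where sham replicate 1 and control replicate 1 nearly met. As with the other named genes, none of these passed without sham replicate 2 or without sham replicate 3.

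Control skin of week 1 was set against control skin of weeks 2, 3 and 4, taken from other radiated mice, to place its levels in the course of the control groups. This comparison uses the same 4 control week 1 libraries, so its calls are not independent of those against sham skin. Of 18192 genes, 484 passed (2.66%), of which 256 (1.41%) were higher and 228 (1.25%) lower in week 1, with 3388 at an unadjusted p under 0.05. Of the clock genes 8 were higher and 1, Cry1, was lower (-0.98, edgeR adjusted p 0.0397), with Ciart, Per3 and Nr1d1 among the 8 and a list median of 0.53. Dbp was higher in week 1 by 1.77 (adjusted p 0.00139) and Per1 by 1.28 (adjusted p 0.0103). The weekly means for Dbp were 50.3 CPM in week 2, 6.94 CPM in week 3 and 7.60 CPM in week 4, beside 5.97 CPM in sham skin, 47.1 CPM in control skin of week 1 and 51.3 CPM in radiated skin of week 1. High Dbp was thus found in weeks 1 and 2 and in radiated as well as control skin. Arntl ran the other way, with means of 26.9, 24.3, 55.0 and 56.2 CPM in control weeks 1 to 4 and 40.5 CPM in sham skin.

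Nr4a1 was higher in week 1 than in the later weeks by 1.51 (edgeR adjusted p 0.0103) and Atf3 by 1.61 (adjusted p 0.0323), and the only other immediate early gene that passed was Fosl2 (0.62). Nr4a1 had means of 127, 101 and 129 CPM in control weeks 2 to 4 and 269.5 CPM in radiated week 1, all above its 19.8 CPM in sham skin. Fosl1 had means of 57.2, 130.0 and 2.54 CPM in weeks 2 to 4. None of the 25 muscle genes passed in edgeR between week 1 and the later weeks, with a median of 0.52. Of the 25, 6 had an unadjusted p below 0.05, beside 18.6% of all genes, and DESeq2 called 1, beside 7.21% of the 15682 genes with an adjusted p. Mstn had means of 318, 115 and 57.3 CPM in control weeks 2 to 4 and 82.0 CPM in radiated week 1, beside 341 CPM in control week 1. Radiated skin of the same week was thus closer to the sham mean of 52.3 CPM. Of the adipocyte genes 4 were higher in week 1: Adipoq (1.16, adjusted p 0.0299), Plin1, Cfd and Acvr1c. Mki67, at means of 140, 86.0 and 147 CPM in weeks 2 to 4, did not differ beyond the threshold (-0.48, edgeR adjusted p 0.659). Its week 2 mean rested on replicate 1 at 402 CPM, with 35.1 to 64.7 CPM in the other libraries of week 2. The control libraries of week 1 lay at 65.8 to 120 CPM. Of the position genes Hoxc10 (-1.52, adjusted p 0.0356) and Hoxa9 (-1.27, adjusted p 0.0146) were lower in week 1. Cerkl, a ceramide kinase-like protein, and Gm10408 were also lower (-1.59 and -1.24).

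The largest increases over the later weeks were hair genes: Krtap1-5 (5.68), Krt34 (5.58), Krt33a (5.55) and Krtap7-1 (5.53), with adjusted p from 0.0299 to 0.0442 in edgeR. They came from control replicate 1. Krtap1-5 lay at 123, 0, 0.191 and 6.22 CPM in the 4 libraries of week 1, and without control replicate 1 its log2 fold change was 1.75 (adjusted p 0.544). The number of genes that passed ran from 76 without control week 1 replicate 4 to 814 without control week 2 replicate 1.

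**Figure D5:**
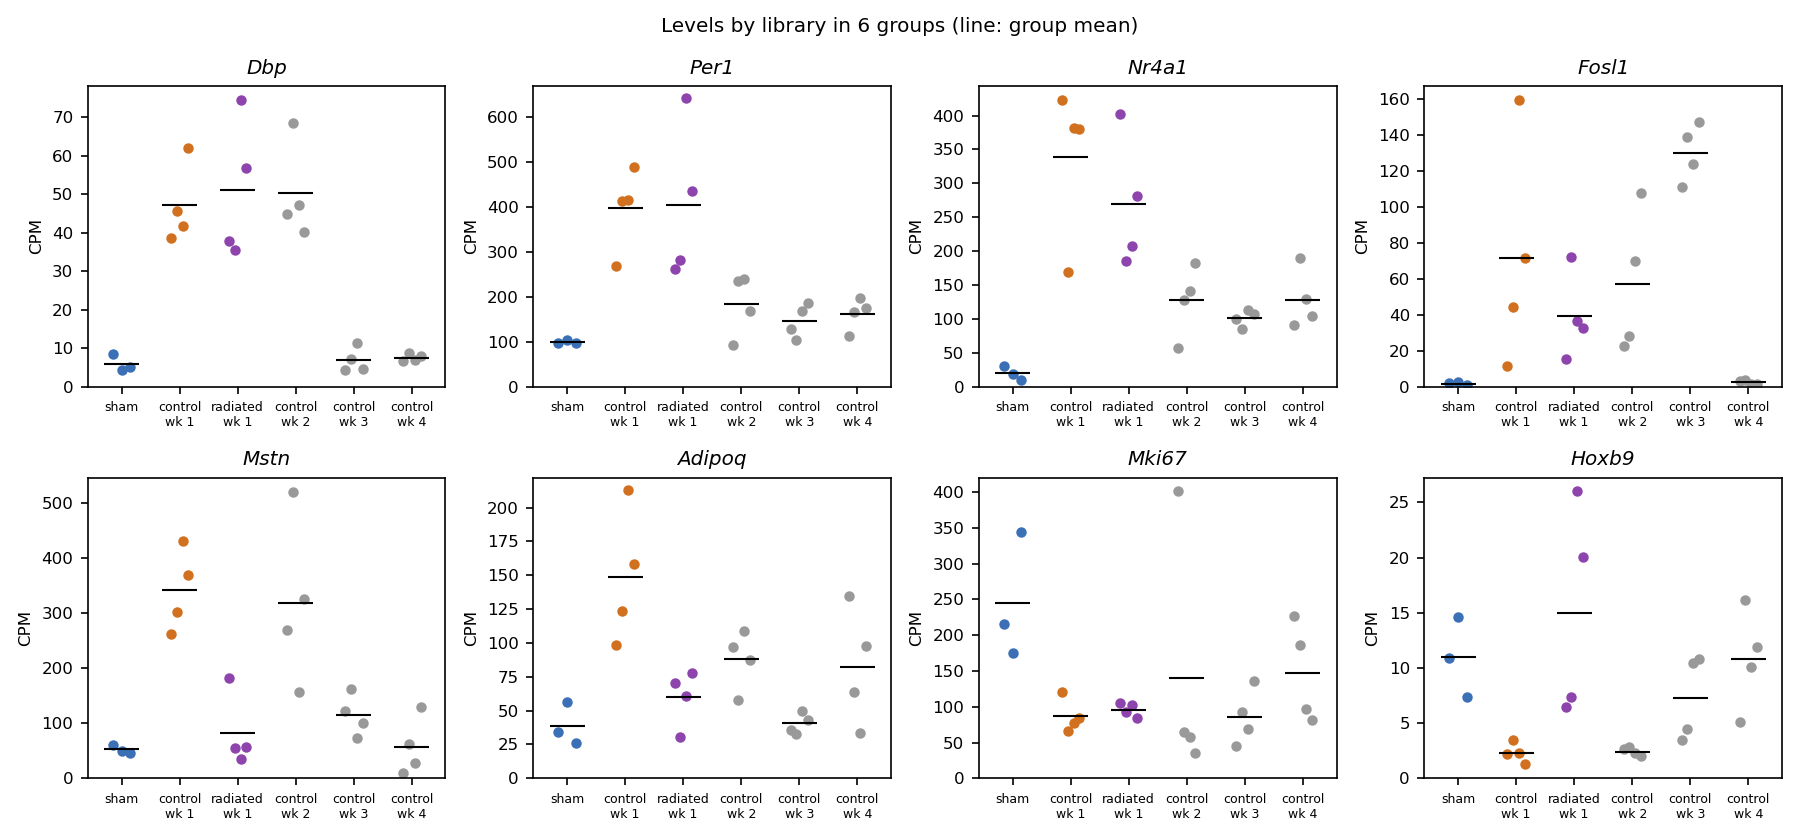
Levels (y axis, CPM) of 8 genes in sham skin, control and radiated skin of week 1 and control skin of weeks 2 to 4 (x axis), with 1 point for each library and a line for the group mean. Dbp is near 50 CPM in the week 1 groups and control week 2 and near 7 CPM elsewhere, Mstn is high in control weeks 1 and 2 but not in radiated week 1, and Hoxb9 is lowest in control weeks 1 and 2.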

How the data were processed

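RNA of skin biopsies was sequenced in bulk. Per the labels' protocols, RNA was extracted with an RNeasy kit and Kallisto and DESeq2 were used, and the submitters' processing notes name Trim Galore 0.6.7, kallisto 0.46.2 and mm10. The transcriptome release and the step from transcripts to genes are not given in the sources used here. The authors deposited estimated counts for 36106 genes, not scaled between samples. Of a library's values 29.8% to 31.2% were not whole, and all were rounded here. Near-identical genes depend on how reads were split.

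Sham and control week 1 libraries were fitted in edgeR 4.0.16 (R 4.3.3) with filterByExpr, TMM scaling and the quasi-likelihood F test, with Benjamini-Hochberg adjustment over all genes tested and no other term. Nothing in the labels states that the replicates are separate mice beyond the number of mice, so p-values measure the spread between these samples. Sham and control replicates share only a number. Control week 1 was also fitted against control weeks 2 to 4. SEs are the log2 fold change over the square root of F. CPM are counts per 1e+06 on libraries scaled over all 35 samples. A floor of 3 counts is 1.12e-05% to 1.73e-05% of a library. It covers counting error only, since reads that carry no molecular identifier can be copies of the same molecule. The script was tested on counts simulated gene by gene, without shifts between libraries that many genes share. That run cannot speak to how reliable the calls are. DESeq2 1.42.0, other scalings and filters, and left-out libraries were the alternatives.

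Named genes are those with an adjusted p under 0.05, at least 5 CPM on average and no overlap that had the 12 largest increases or decreases or the 4 smallest p in a direction, up to 4 members of each of 42 gene lists with the smallest p, 8 genes reported whatever their values, and the 4 largest changes each way between weeks. Others are marked, and 4 that the rule names are not reported here. The members and lists were chosen with earlier results of these data known. Positions are those of GENCODE M21 on GRCm38.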

Additional observations from a re-analysis of the deposited data

Results flagged for a closer look

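Among the 4 control week 1 libraries, 7 of 110 named genes had 1 library far from the other 3, by Dixon's criterion on the gap over the range. Chance alone flags about 1 in 20 groups. Control replicate 1 stood apart for Per2 (12.4 CPM against 40.5 to 47.2), Cry2 (57.5 against 98.7 to 106), Cidec (29.4 against 61.8 to 68.8) and Pik3r3 (21.8 against 12.9 to 13.3), each time on the side of the sham libraries. Control replicate 2 was low for Nr4a1 (169 against 380.1 to 423 CPM). Control replicate 3 was high for Nr4a3 (139 against 50.0 to 58.7 CPM) and S100a8 (0.382 against 0 to 0.0475 CPM, too low to be tested).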

How the results depend on the processing

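For control week 1 against sham, 881 genes passed in edgeR. The count was 902 with median-ratio scaling, 1135 without a low-count filter, 994 with at least 1 CPM and 1119 in a fit of all 35 libraries (552 higher, 567 lower). It was 2974 with DESeq2, 2672 for sham 2 and 3 against control 2, 3 and 4, and 0 for sham against control 1 and 4. Leaving out 1 library gave 0 to 1803. With the replicate block, which pairs different mice, it was 0, with 2607 genes at an unadjusted p under 0.05 and a smallest adjusted p of 0.175. Libraries with the same replicate number in their titles had a mean correlation of deviations of -0.32 across genes (-0.46 to -0.23), against 0.11 for the other pairs. The column names number sham replicates 1, 2 and 3 as 2, 3 and 4, and pairs by those numbers had 0.33, -0.08 and 0.07. Deviations from a group mean cancel out within the group, so these values cannot show whether samples were paired. Against control weeks 2 to 4, 484 genes passed. The count was 284 with total-count scaling, 1130 with DESeq2 and 331 with the replicate block, and leaving out 1 library gave 76 to 814. Of 102 named genes, 98 of which passed against sham, all kept their direction under the 16 alternatives, of which the filter of at least 1 CPM gave no value for Sprr2h, except Krt6a, at -0.99 and between -1.42 and 0.13 with 1 library left out (0.13 without sham replicate 2). All 98 lost the threshold under the block, without sham replicate 2, without sham replicate 3 and with control 1 and 4 alone, 85 to 92 of them without control replicate 2, 3 or 4, 35 in the fit of all 35 libraries and 14 with total-count scaling. The causes were not tested. With 3 and 4 libraries, small differences lie below what these tests detect.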
